A study of Mus musculus with 6 samples.

Results

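Bim, encoded by Bcl2l11, and the Bcl2 family around it were examined in cerebral cortex RNA of mice. The members were Bcl2l11, Bad, Bid and Bbc3, Bax and Bak1, and Bcl2, Bcl2l1, Bcl2l2 and Mcl1, taken as every probe set whose platform symbol is one of these 10 names. This gave 32 of 45037 probe sets, for 9 of the 10 genes (of 18193 genes named on the array); no probe set was paired with Bax in the annotation used here, so Bax has no value. The family was chosen with the rise of Bcl2l11 in this comparison known, so the members' differences are a description and carry no test.

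Total RNA was measured on 6 Affymetrix mouse expression arrays. The labels call 3 of them wild type and 3 double knockout for Egr1 and Egr3, a pair of zinc finger transcription factors that neurons induce with activity. The knockout label below means these latter 3 arrays. The labels give no strain, sex, age, allele or pairing, and do not say that the arrays came from separate animals, so the spread given here is that between arrays and may be technical.

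Proteins of this family control whether the outer mitochondrial membrane is opened, the step that releases cytochrome c and commits a cell to apoptosis by the intrinsic route. Bax and Bak1 form the openings, the survival proteins Bcl2, Bcl-xL (Bcl2l1), Bcl-w (Bcl2l2) and Mcl1 hold them in check, and the BH3-only proteins, among them Bim, Bad, Bid and Puma (Bbc3), bind the survival proteins or act on Bax and Bak1 directly. In neurons Bim and Puma are known for their induction when trophic support is withdrawn, and Bcl-xL and Mcl1 for keeping neurons alive.

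Because the labels concern the loss of DNA-binding factors, the start sites of the members were searched for the EGR-type motif GCGNGGGCG and, as a motif of another family known to act on Bim and Puma, the FOXO-type motif GTAAACA, on both strands. These motifs do not share letters at any match found. Among the 16 start windows of the 10 members in the RefSeq table (GRCm38.p6; 250 bases before to 50 after a start), the EGR-type motif stood in 3, of Bcl2l11 and Bbc3, and the FOXO-type motif in 2, of the same genes. Of all 32851 windows 5.55% held the EGR-type and 3.65% the FOXO-type motif. Counted by gene, each motif stood in 2 of the 10 members, beside 6.27% (EGR-type) and 4.05% (FOXO-type) of all genes. The motifs were chosen with the members' values known, and a match is a description of letters, not a binding site. The windows with matches are shown because Bcl2l11 and Bbc3 were the BH3-only members higher on all arrays with the knockout label; capitals mark the motifs on either strand.
Bcl2l11, chr2:128125788-128126087, plus strand: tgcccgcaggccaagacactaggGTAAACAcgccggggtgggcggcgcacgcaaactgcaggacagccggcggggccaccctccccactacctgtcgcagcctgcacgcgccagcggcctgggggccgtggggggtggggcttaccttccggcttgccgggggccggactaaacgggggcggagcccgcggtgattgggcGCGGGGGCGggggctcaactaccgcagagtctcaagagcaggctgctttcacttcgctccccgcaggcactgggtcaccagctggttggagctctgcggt
Bbc3 first window, chr7:16309333-16309632, plus strand: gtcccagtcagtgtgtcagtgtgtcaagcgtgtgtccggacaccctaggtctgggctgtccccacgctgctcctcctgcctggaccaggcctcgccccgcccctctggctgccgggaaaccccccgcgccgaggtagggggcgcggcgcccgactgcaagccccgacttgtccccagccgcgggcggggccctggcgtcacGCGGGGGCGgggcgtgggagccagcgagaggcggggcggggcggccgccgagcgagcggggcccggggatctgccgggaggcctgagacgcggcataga
Bbc3 second window, chr7:16310011-16310310, plus strand: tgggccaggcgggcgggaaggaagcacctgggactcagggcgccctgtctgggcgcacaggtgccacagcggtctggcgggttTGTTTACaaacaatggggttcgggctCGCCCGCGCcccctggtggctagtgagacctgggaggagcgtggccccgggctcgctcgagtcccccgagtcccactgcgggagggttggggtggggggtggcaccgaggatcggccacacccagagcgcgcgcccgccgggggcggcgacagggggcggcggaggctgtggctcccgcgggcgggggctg

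In the Bcl2l11 window the EGR-type match begins at position -50 and the FOXO-type match at -227 from the start. In the first Bbc3 window the EGR-type match begins at -49 and has the same letters, GCGGGGGCG. In the second Bbc3 window an EGR-type match begins at -141 and a FOXO-type match at -167, both on the opposite strand. The windows are rich in G and C (71%, 76% and 74.7%), and the simpler GC box GGGCGG, which can overlap the EGR-type motif, stood in 11 of the 16 member windows and in 35.7% of all windows. The second window of Bcl2l11, at chr2:128127325-128127624, and the third of Bbc3, at chr7:16310181-16310480, held neither the EGR-type nor the FOXO-type motif. Nor did the Bcl2 window, which held 7 GC boxes.

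Bim RNA was higher on every array with the knockout label. The brightest Bcl2l11 probe set (1456005_a_at) read 110.0, 79.8 and 106 signal units on wild type replicates 1, 2 and 3 and 197, 275 and 231 on double knockout replicates 1, 2 and 3. The groups did not overlap, the lowest array with the knockout label lying 1.79 times above the highest wild type array. The means were 98.5 ± 16.3 (SD, n = 3) and 234 ± 39.3 (SD, n = 3), a difference of 1.13 on the log2(signal + 16) scale (SE 0.16), which is 2.19-fold. The offset of 16 makes such folds smaller than ratios of signals for dim probe sets.

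A second Bcl2l11 probe set (1435448_at) gave the same picture. It read 84.8, 62.3 and 79.5 in wild type and 142, 200.3 and 172 on the arrays with the knockout label, a log2 difference of 1.03 (SE 0.16). Within each group the arrays stood in the same order on both probe sets, with wild type replicate 2 the lowest and double knockout replicate 2 the highest. Both measure the same RNA on the same arrays and are not separate evidence.

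The other 3 Bcl2l11 probe sets were dim and lay below the brightness filter. Array medians were 36.2 to 39.5 signal units. Probe set 1435449_at read 21.8, 21.96 and 21.3 in wild type and 27.2, 64.7 and 46.9 on the arrays with the knockout label. Probe set 1456006_at read 19.4, 18.1 and 22.9 against 35.7, 27.3 and 53.8. These dim probe sets were also higher on all 3 arrays of the double knockout label, by a log2 difference of 0.68 and 0.58. Probe set 1426334_a_at read 13.3, 13.97 and 14.7 against 2.21, 24.3 and 11.9, and its groups overlapped. Thus 4 of the 5 Bcl2l11 probe sets were higher without overlap, and the exception was the dimmest. Of all tested probe sets 11.5% were higher without overlap, a share that does not cover the dim ones. All 5 belong to the gene chosen for its rise, so this count is a description and not separate evidence.

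**Figure D1:**
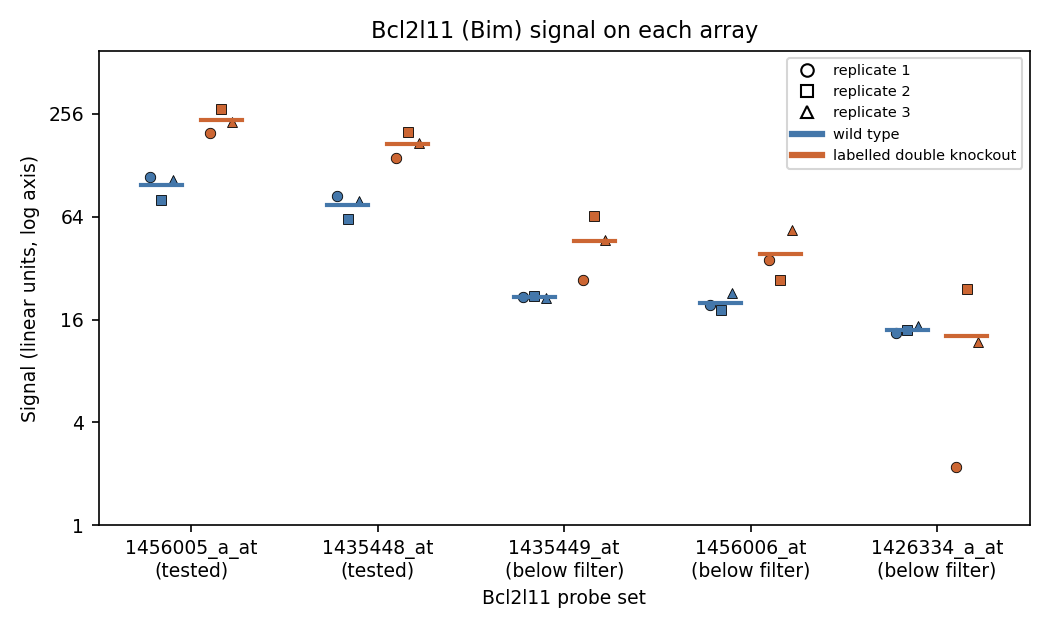
Signal of the 5 Bcl2l11 probe sets on each of the 6 arrays (vertical axis, linear signal units on a log axis), with replicates as symbols and group means as bars. In 4 probe sets all 3 arrays with the knockout label lie above all 3 wild type arrays; in the dimmest, 1426334_a_at, the groups overlap.

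Of the 22518 probe sets bright enough to be tested, 229 (1.02%) had a limma adjusted p under 0.05, 96 of them (0.426%) higher and 133 (0.591%) lower on the arrays with the knockout label. The family had 20 tested probe sets of 8 genes. Only the 2 brighter Bcl2l11 probe sets were among the calls, and since they were the reason for choosing the family nothing is read from that count. A log2 difference of at least 1 in size, as both of these had, was found in 0.728% of all tested probe sets. Bcl2l11 kept its direction without each array in turn, with a log2 difference of 1.004 to 1.24 on the brightest probe set. That probe set was no longer past the threshold when all probe sets were tested with no filter (log2 1.13), without double knockout replicate 2 (log2 1.01), without double knockout replicate 3 (log2 1.13), or without wild type replicate 1 and double knockout replicate 2 together (log2 1.09). The second probe set was lost in these fits and also without wild type replicate 1 (log2 1.10).

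The brighter Egr3 probe set read 924 to 2670 in wild type and 339 to 507 on the arrays with the knockout label, whereas Egr1 read 1247 to 2054 and 2116 to 2657, so Egr1 signal does not go with the label. The title of double knockout replicate 1 names no genotype, and the group is called by its label. Double knockout replicate 2 came from a female (Xist 3140 on the brightest probe set, at most 42.5 on the other arrays), and wild type replicate 1 had dim spiked controls, at 0.411 of the level typical for the rest. The 3' to 5' ratio of the Gapdh controls, a sign of RNA quality, was 0.806 to 0.873 in wild type and 0.881 to 0.9497 on the arrays with the knockout label. The labelled tissue went with its markers, the 5 neuronal genes (Rbfox3, Snap25, Syt1, Stmn2, Tubb3) all being bright enough to be tested.

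Summed signals of cell type markers are set here beside Bcl2l11. Such sums are carried by the brightest genes, and 1 of all tested markers, the astrocyte gene Aqp4, was among the calls (log2 -0.96, SE 0.14). The summed signal of the 9 tested microglia markers, of 10 listed, was 3479 to 4019 in wild type and 2622 to 3265 on the arrays with the knockout label. That of all 6 astrocyte markers was 6293 to 6587 and 5339 to 5897, and that of 5 tested oligodendrocyte markers of 6 was 15252 to 17672 and 18283 to 20883. The 5 neuronal markers summed to 16353 to 20675 and 21160 to 22933. The 5 tested endothelial markers of 6 overlapped (621 to 930.3 and 745 to 823), the 4 tested choroid plexus markers of 6 were high on wild type replicate 3 (10983) and double knockout replicate 1 (4832) and at most 465 elsewhere, and of the lymphocyte list only 1 of 5 markers was bright enough to be tested, at 56.9 to 68.4 and 24.0 to 37.8. None of the tested markers was at 0. Fewer cells of a type and less RNA per cell cannot be told apart in such RNA, and the part of cell makeup or RNA quality in the Bcl2l11 difference was not tested; without the array of the female that difference was 1.01.

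Among the other BH3-only members, Bbc3 alone was higher without overlap on a tested probe set, as were 11.5% of all tested probe sets. Bbc3, which encodes Puma, a p53-induced killer protein that binds every survival member of the family, read 49.97, 49.98 and 49.6 in wild type and 57.7, 96.1 and 81.4 on the arrays with the knockout label. All 3 arrays of the label lay above wild type, and double knockout replicate 1 was close to it. The means were 49.9 ± 0.205 (SD, n = 3) and 78.4 ± 19.4 (SD, n = 3), and the log2 difference of 0.50 (SE 0.18) was not among the calls. As for Bcl2l11, double knockout replicate 2 was the highest and replicate 1 the lowest array of the label. The log2 difference was 0.31 to 0.67 over the alternatives.

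Bad, which is held inactive by growth factor signalling through phosphorylation, did not separate the groups. Its brighter probe set (1416583_at) read 231, 168 and 173 in wild type and 219.9, 225 and 208 on the arrays with the knockout label, a log2 difference of 0.19 (SE 0.14). The other (1416582_a_at) differed by 0.06 (SE 0.19), with values from 119 to 208, and by -0.18 without wild type replicate 2. Wild type replicate 2 was the lowest array on both.

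Bid, which links death receptors to mitochondria once cut by caspase-8, overlapped between the groups on its tested probe set (1417045_at). It read 106, 99.7 and 119.7 in wild type and 119, 107 and 104 on the arrays with the knockout label, a log2 difference of 0.02 (SE 0.14). Its 2 dim probe sets went different ways, by 0.11 and -0.30, and on the second (1447873_x_at), with signals of only 8.71 to 22.3, the arrays with the knockout label were all lower.

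The effector Bak1 gave no tested value. Its brighter probe set (1418991_at) read 34.9, 35.4 and 27.1 in wild type and 37.2, 27.3 and 30.9 on the arrays with the knockout label, near the array medians and overlapping. The other read 1.03 to 11.1 over all arrays.

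Among the survival members, only Bcl2 had a lower mean under the knockout label on every probe set. Its 5 probe sets differed by log2 values of -0.48 to -0.098. Bcl2, the founding member, blocks apoptosis at mitochondria and the endoplasmic reticulum. None of its 3 tested probe sets was among the calls.

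Probe set 1437122_at of Bcl2 read 104, 87.8 and 98.9 in wild type and 72.8, 65.8 and 56.6 on the arrays with the knockout label, without overlap. The means were 97.0 ± 8.42 (SD, n = 3) and 65.1 ± 8.09 (SD, n = 3), a log2 difference of -0.48 (SE 0.15). Probe set 1422938_at, with 64.3, 54.99 and 49.2 against 41.3, 34.7 and 39.5, did not overlap either (log2 -0.40, SE 0.16). Of all tested probe sets 10.7% were lower without overlap. The brightest, 1457687_at, read 117, 155 and 140.3 against 127, 88.0 and 75.9 (log2 -0.46, SE 0.18). On that probe set double knockout replicate 1 lay within the wild type range, and the other arrays of the label lay below it. Over the alternatives the log2 differences of these 3 probe sets lay from -0.64 to -0.23, all below 0.

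**Figure D2:**
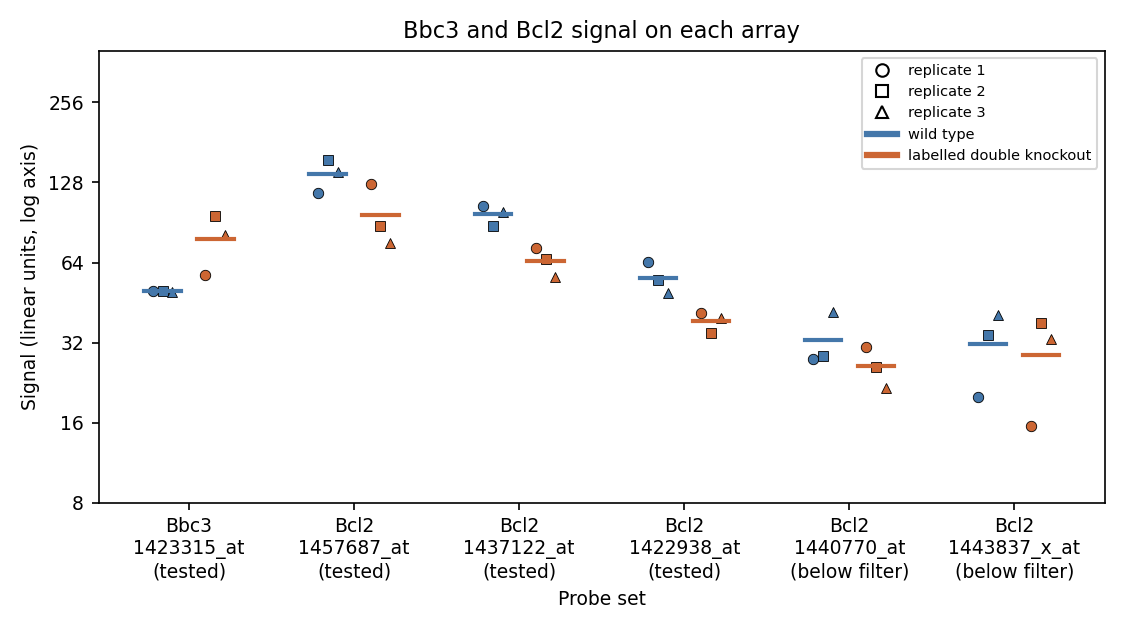
Signal of the Bbc3 probe set and the 5 Bcl2 probe sets on each array (vertical axis, linear signal units on a log axis), with replicates as symbols and group means as bars. Bbc3 and the Bcl2 probe sets 1437122_at and 1422938_at show no overlap between the groups, Bbc3 with the arrays with the knockout label higher and Bcl2 with them lower.

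Bcl2l1, whose long form Bcl-xL is a main survival protein of mature neurons and whose short form promotes death, was not uniform over its probe sets. The brightest (1420888_at) read 368, 417 and 345 in wild type and 326, 343 and 356 on the arrays with the knockout label, a log2 difference of -0.13 (SE 0.11). Probe sets 1420887_a_at and 1426191_a_at differed by 0.22 (SE 0.20) and 0.15 (SE 0.20). Single arrays set the size of these differences. The first was 0.39 when wild type replicate 1 or double knockout replicate 2 was left out, and 0.11 when replicate 3 of either group was. The second was 0.37 without wild type replicate 1 and 0.0061 without wild type replicate 2. All 4 Bcl2l1 probe sets overlapped between the groups, and which form each detects was not given in the sources used here.

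Bcl2l2, encoding Bcl-w, read 691, 678 and 656 in wild type and 780.5, 657 and 768 on the arrays with the knockout label on its brightest probe set (1423572_at), a log2 difference of 0.12 (SE 0.10). Its dim tested probe set (1451029_at) read 38.8, 25.8 and 29.6 against 38.4, 56.2 and 44.5 (log2 0.40, SE 0.18). Its wild type mean lay below the brightness filter, at a signal of about 36.6, so it was tested only through the group in which it was higher, and it was not tested without double knockout replicate 2. The groups met on that probe set only through wild type replicate 1 and double knockout replicate 1. All 4 Bcl2l2 probe sets had a higher mean on the arrays with the knockout label, and all overlapped. In the RefSeq table Bcl2l2 is the only member within 20 Mb of Egr1 or Egr3, and it lies on the chromosome of Egr3.

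Mcl1, a short-lived survival protein that neurons need, was the most completely measured member, with 6 tested probe sets. Their log2 differences were small, from -0.015 to 0.22, and 5 of 6 were above 0. Probe set 1448503_at read 342, 355 and 349 in wild type and 385, 421 and 418 on the arrays with the knockout label, without overlap (log2 0.22, SE 0.099). Probe set 1437527_x_at read 668, 678 and 713 against 757, 723 and 753 (log2 0.11, SE 0.092). The remaining Mcl1 probe sets overlapped, among them 1416880_at with 347 to 358 against 339 to 365. A suffix of x marks probes that may also bind other transcripts.

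Over the 20 tested probe sets of the family, 15 had a higher and 5 a lower mean on the arrays with the knockout label, or 14 and 5 of the 19 above the filter in both groups, which leaves out Bcl2l2 1451029_at. The median log2 difference over the 20 was 0.12, beside 0.0093 over all tested probe sets, and the median size of the difference, whatever its sign, was 0.17 beside 0.15. Without overlap, 5 of the 20 were higher and 2 lower, beside 11.5% and 10.7% of all tested probe sets. Because probe sets of a gene share their RNA and the family was chosen on this comparison, these shares describe the family and are no evidence about it.

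**Figure D3:**
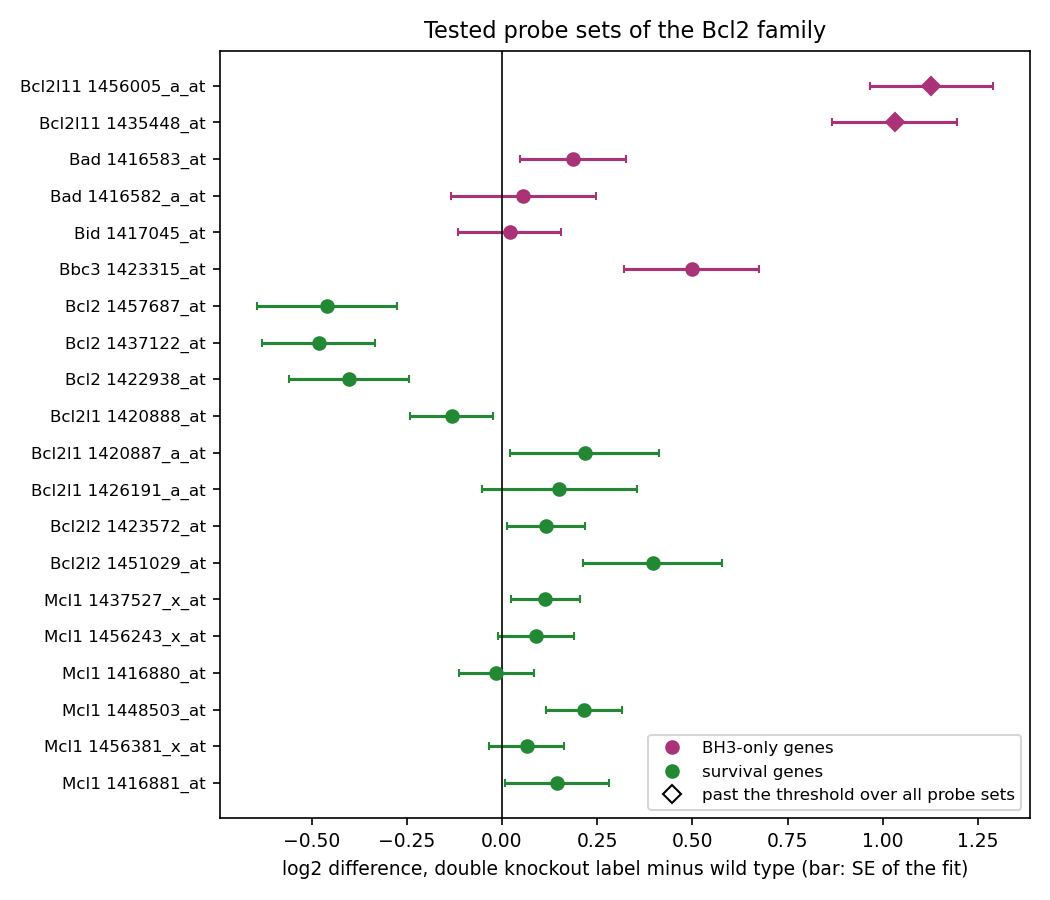
Log2 difference between the arrays with the knockout label and wild type (horizontal axis, on the log2(signal + 16) scale; bars are the SE of the fit) for the 20 tested probe sets of the family. The 2 Bcl2l11 probe sets lie at 1.13 and 1.03, Bbc3 at 0.50, the 3 Bcl2 probe sets between -0.48 and -0.40, and the rest between -0.13 and 0.40.

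The log2 values of Bcl2l11 on the 6 arrays were compared with those of the other members, as a description in which the groups and the arrays are shared. Pearson's r to the brightest Bcl2l11 probe set over 6 arrays was 0.90 for Bbc3 and -0.88 to -0.84 for the 3 tested Bcl2 probe sets. It was 0.66 and 0.26 for Bad and 0.13 for Bid. Probe sets of the other survival genes disagreed among themselves, with r from -0.34 to 0.93 over the 6 of Mcl1, 0.40 and 0.91 for Bcl2l2 and -0.68, 0.34 and 0.50 for Bcl2l1. The 5 probe sets of other genes most like Bcl2l11 were those of Fkbp3, which encodes an FK506-binding protein (r 0.998), 4833427F10Rik (0.998), Ifnar2, a subunit of the type I interferon receptor (0.991), Fam3a (0.991) and Mbd4, a DNA repair glycosylase (0.991). Fkbp3 read 1317, 1186 and 1287 in wild type and 1557, 1749 and 1614 on the arrays with the knockout label, with the same array order as Bcl2l11. None of the 5 was among the calls. Of 19572 candidate probe sets, 634 had an r above 0.9 and 203 an r above 0.95. Negative r values were not counted in this way. The r values rest on 6 arrays in 2 groups. The probe sets of 4833427F10Rik and Ifnar2, and Bcl2l2 1451029_at (r 0.91), lay below the filter in wild type. These probe sets entered only through the group in which they were higher, as likeness to Bcl2l11 requires.

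The rest of the apoptosis pathway was taken from 4 lists of 75 genes, of which 50 had a tested probe set. In limma, none of the 50 was called on any tested probe set, beside 1.02% of all tested probe sets. At so small a share, a count of 0 does not show that the pathway was unchanged. At an unadjusted limma p under 0.05 there were 4 of the 50, beside 16.6% of all tested probe sets. Of the 50 genes 29 were higher and 21 lower on the arrays with the knockout label, with a median log2 difference of 0.058 beside 0.0093 over all tested probe sets. The count of 0 was the same in each of the alternatives, with each array left out and without wild type replicate 1 and double knockout replicate 2 together.

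None of the 8 tested genes of the wider Bcl2 family passed, with 4 higher, 4 lower and a median log2 difference of -0.020. The smallest p-values were those of Bnip1 (log2 -0.22, SE 0.15, limma adjusted p = 0.500) and Bnip2 (log2 0.16, SE 0.11, limma adjusted p = 0.512), which encode BNIP proteins first found as partners of viral and cellular Bcl2. The neuronal BH3-only gene Hrk, named here after its values were seen, read 283, 229 and 356 in wild type and 224, 284 and 244 on the arrays with the knockout label.

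None of the 15 tested genes of the apoptosome, caspases and their inhibitors passed, with 8 higher and 7 lower (median log2 0.036). Xiap, which encodes a caspase inhibitor, read 566, 688 and 687 in wild type and 800.01, 749.99 and 825 on the arrays with the knockout label (log2 0.29, SE 0.11, limma adjusted p = 0.227). A second Xiap probe set also did not overlap between the groups (log2 0.37, SE 0.12, limma adjusted p = 0.187). Htra2, a mitochondrial protease that counters Xiap, differed by 0.44 (SE 0.17, limma adjusted p = 0.229) and by 0.14 on its other probe set. The first Htra2 value was 0.28 without wild type replicate 2 and 0.62 without wild type replicate 1. Apaf1, the scaffold of the apoptosome, and Casp9, the caspase it activates, differed by -0.16 and -0.14, with overlap; they too were named after their values were seen.

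None of the 6 tested death receptor genes passed, with 2 higher and 4 lower (median log2 -0.060). Tradd, an adaptor of the TNF receptor, differed by 0.27 (SE 0.17, limma adjusted p = 0.442; 0.16 without double knockout replicate 1), and Tnfrsf21, the neuronal death receptor DR6, by -0.12 (SE 0.10, limma adjusted p = 0.598).

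None of the 21 tested regulators of the family passed, with 15 higher and 6 lower (median log2 0.081). Foxo3, a transcription factor known to drive Bcl2l11, read 262, 307 and 160.1 in wild type and 298, 379.7 and 361 on the arrays with the knockout label on its brightest probe set. The log2 value was 0.52 (SE 0.20, limma adjusted p = 0.240), while its other probe set differed by 0.023. Without wild type replicate 3 the first value was 0.27, and without wild type replicate 2 it was 0.71. Mapk8, encoding the kinase JNK1, which phosphorylates Bim in neurons, differed by 0.24 on its brightest probe set (SE 0.10, limma adjusted p = 0.275). Another Mapk8 probe set (1457936_at) read 365, 188 and 163 against 496, 417 and 763 (log2 1.21, SE 0.28, limma adjusted p = 0.0797), and the remaining 3 overlapped, so the probe sets of this gene disagreed.

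**Figure D4:**
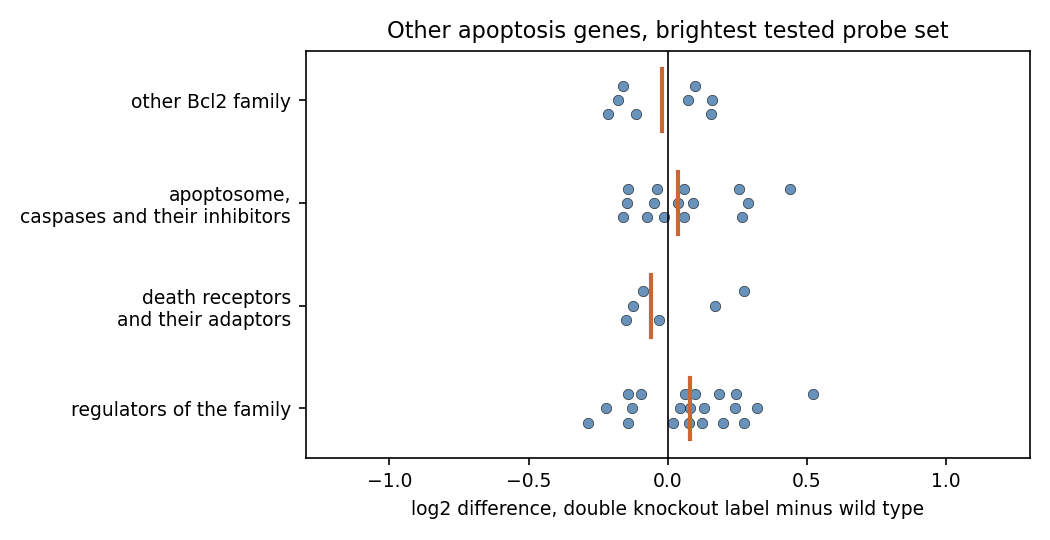
Log2 difference between the arrays with the knockout label and wild type (horizontal axis) for 50 other apoptosis genes in 4 lists, each point a gene on its brightest tested probe set and each vertical bar the median of its list. None of the points passed the threshold, and the medians lie between -0.060 and 0.081.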

How the data were processed

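Expression was measured in 3 wild type and 3 arrays labelled Egr1 and Egr3 double knockout. The deposited values are linear intensities per probe set, which the authors had summarised and scaled (the mean after trimming 2% at each end was 150.0 on each array). Software and settings are not given in the sources used here. The number of arrays limits the precision.

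Signals under 1 (4.35% of values) were set to 1 and log2(signal + 16) was taken. Probe sets with a mean above the median of all 45037 non-control probe sets were tested with limma 3.58.1 in R 4.3.3 (group as the only term, intensity trend, Benjamini-Hochberg adjustment, threshold 0.05). The step was tested on simulated data. Only the 34945 probe sets with 1 platform symbol were named; symbols were updated through RefSeq (GRCm38.p6). Each pathway gene stands by the brightest of its tested probe sets. Named were all member probe sets, every pathway gene past the threshold or else the 2 of each list with the smallest p, and the 5 probe sets most like Bcl2l11. Members and lists were chosen with earlier results of these data known. The groups share replicate numbers only, so the comparison is unpaired. Alternatives were other offsets, scalings, filters and variance models, array weights, the replicate block and each array left out. Python 3.11.15 with matplotlib 3.10.9 drew the figures.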

Additional observations from a re-analysis of the deposited data

How the results depend on the processing

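The direction of both called Bcl2l11 probe sets held under all 17 alternatives, and the Bcl2l11 difference of 1.13 moved by more than the replicate spread only with an offset of 64 (0.87). Without each replicate in turn it was 1.004 to 1.24. The count of family members past the threshold, 1, became 0 with no filter, with the stricter filter at the 75% quantile, where Bcl2l11 was too dim to be tested, and without wild type replicate 1 and double knockout replicate 2 together, an alternative chosen after seeing the data; without single replicates it was 0 to 1. The count of probe sets changed, 229, became 10 with no filter, 131 with no intensity trend and 9 without both of those arrays, and 33 to 300 without single replicates. The cause of these changes was not tested. Fewer arrays entered where replicates were left out, more probe sets with no filter and fewer with the stricter filter. With no intensity trend the arrays and probe sets were the same. Among the other member and named pathway values 6, all of members, moved by more than the replicate spread, and 451 were counted as unchanged. Pathway values were not held against that spread. They were counted as unchanged when their sign and their place outside the calls stayed the same. Small member differences that were not among the calls changed sign for Bad 1416582_a_at (-0.18 without wild type replicate 2), Bid 1417045_at (-0.030 without wild type replicate 2 and -0.029 when double knockout replicate 1 was left out) and Mcl1 1416880_at (0.0076 without double knockout replicate 2).

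With the replicate block 182 probe sets passed and Bcl2l11 remained the family's 1 call. Same-numbered arrays correlated at -0.15, 0.0013 and -0.10 in their deviations from the group means, so the numbers do not pair the arrays. Signals near the array medians or mostly below them, as of Bak1 and of the dim Bcl2l11 and Bid probe sets, limit what can be said of these. The dimmer Bak1 probe set read as low as 1.03.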
